A study of Arabidopsis thaliana with 10 samples.

Results

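The genes described here are those whose messenger RNA lay higher in calcium-deficient Arabidopsis thaliana plants than in control plants after 2 days, while the mean of boron-deficient plants stayed near the control. They were chosen from measured values on the 6 arrays of 2 days. Signals were taken as log2(signal + 16) with each array shifted to the same median. A member had a calcium minus control difference of at least 1, which is a doubling, a boron minus control difference between −0.5 and 0.5, and a mean of at least 7 in 1 of the 3 groups. Of 22746 probe sets, 184 met these limits. 3 of them measure genes that the rule sets aside (CML47, CHI and AT3G28510), and 4 further genes set aside did not meet the limits. The 181 members are 0.796% of all probe sets. A single gene is named for 86 of them and several genes for 1, and 94 have no name in the tables used here.

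The study measured whole plants on 10 ATH1 arrays, in 5 groups of 2 biological replicates. All plants grew on perlite with a full nutrient solution of 25 µM boron and 3 mM calcium. Control plants kept this solution and were 19 days old at 2 days and 21 days old at 4 days. Boron-deficient plants received a solution without boron for 2 days (19 days old) or 4 days (21 days old), and calcium-deficient plants received a solution without calcium for 2 days (19 days old), with its nitrate kept up by magnesium and potassium salts. The labels give no genetic alteration in any group, and calcium deficiency has no 4 day group. Signals named below were quantile normalized over the 10 arrays. "Rule difference" means the log2 difference used to choose the members, and folds are taken from it. A fold on the log2(signal + 16) scale understates the change of dim probe sets.

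Calcium is a wall cross-linker and a second messenger. In the wall it bridges pectin chains, and in the cytosol short rises of calcium are read by sensor proteins that switch on defence and wound genes. Plants answer disturbed walls and attack with secreted peroxidases, chitinases and glucanases, with more protein folding in the endoplasmic reticulum, and with salicylic acid and pipecolic acid signalling. Boron also cross-links pectin in the wall.

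The 2 boron-deficient arrays of 2 days stood apart from each other over the members. Boron replicate 2 lay above boron replicate 1 for 169 of 181 members (93.4%), against 47.4% of all probe sets. Its median excess over replicate 1 was 0.56 on the rule's log2 scale among members and −0.02 among all probe sets. Set against the mean of the controls, replicate 1 had a member median of −0.15. It lay below both controls for 92 members, or 50.8%, where 42.7% of all probe sets did. Replicate 2 had a member median of 0.41 and lay above both controls for 148 members, or 81.8%, where 26.7% of all probe sets did. For 69 members (38.1%) the controls lay between the boron arrays, replicate 1 below and replicate 2 above, beside 4.5% of all probe sets. The rule held the mean of these same boron arrays near the control mean, which favours arrays on opposite sides of the controls. All probe sets carry no such limit. Because the rule used only the mean of the 2 boron arrays, it did not set which of them was the higher. The shares are given as a description and nothing is read from their distance to those of all probe sets. For these 69 members a boron difference near 0 averaged opposite deviations of the 2 arrays. That a gene was near the control in boron deficiency was set for the mean of the boron arrays and not for each of them. With boron replicate 2 as the only boron array, 105 of the 181 members still met the limits and 114 probe sets did in all. With boron replicate 1 as the only boron array, 144 members still met them and 240 probe sets did in all. The calcium arrays had member medians of 1.4 and 1.33 above the controls on the quantile normalized log2 scale.

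**Figure D1:**
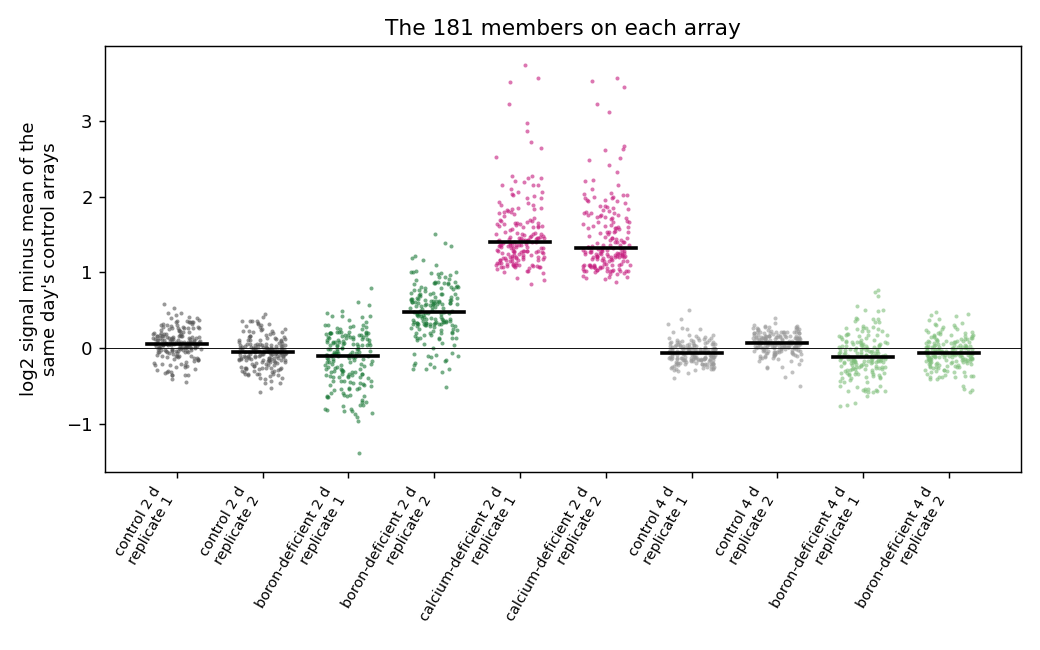
Each point is 1 of the 181 members on 1 array, as its quantile normalized log2(signal + 16) minus the mean of the control arrays of the same day, and black bars are medians over members. The calcium-deficient arrays have medians of 1.4 and 1.33, the boron-deficient arrays of 2 days part at −0.10 and 0.48, and the arrays of 4 days stay between −0.12 and 0.07.

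The rule differences in calcium deficiency ran from 1.0 to 3.62 with a median of 1.31, a 2.48-fold difference. Most members lay near the lower limit: 122 were under 1.5 and 16 were at 2 or more, of which 5 have a single named gene. Both calcium arrays lay above all control and boron arrays of 2 days for 178 of the 181, beside 12.4% of all probe sets. Since the rule used this contrast, nothing is read from that count. In boron deficiency 127 members had a rule difference above 0 and 54 below 0. Control and boron arrays of 2 days did not overlap for 42 of the 181 members, beside 47.4% of all probe sets. The rule held the members' boron mean near the control mean, so nothing is read from these boron counts either.

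**Figure D2:**
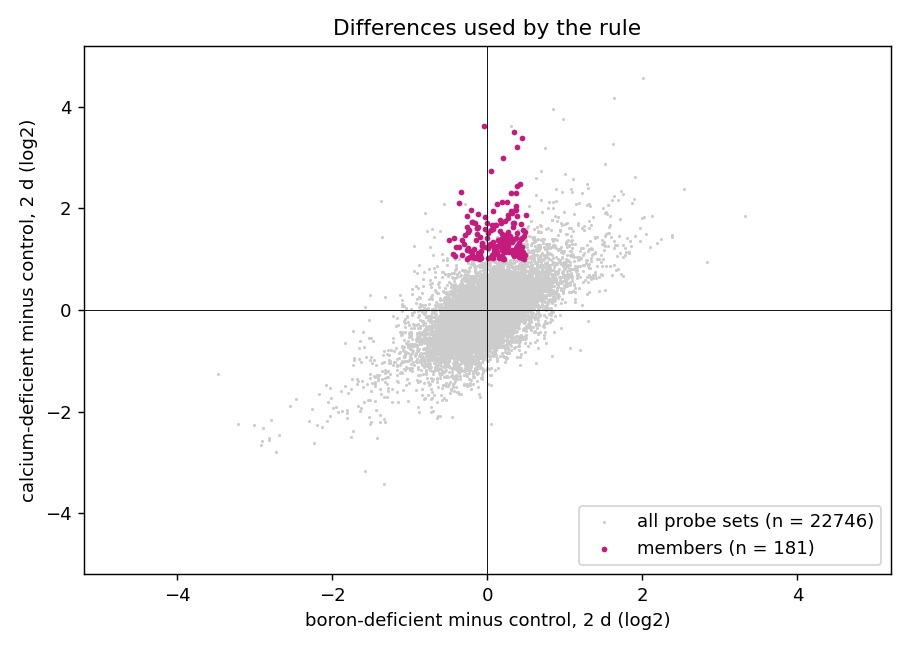
Each point is a probe set, with the boron minus control difference at 2 days on the horizontal axis and the calcium minus control difference on the vertical axis, both in log2 as used by the rule. The 181 members fill the band from −0.5 to 0.5 above a calcium difference of 1, by construction.

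Values were continuous across the limits. Just inside the calcium limit lay AT5G52760 (1.006), AT4G19200 (1.008) and AT3G27220 (1.01), and just outside it AT1G08050 (0.998), AT3G27210 (0.997) and AT3G03610 (0.996). At the upper boron limit scpl20 (0.489), AT3G27220 (0.477) and AT5G10580 (0.469) were inside, and AT2G43590 (0.5, above it before rounding), AT4G19045 (0.501) and AT5G47060 (0.516) outside. At the lower boron limit AT3G60420 (−0.444), RING1 (−0.429) and SBT3.5 (−0.363) were inside, and AT1G13340 (−0.522), AT4G05030 (−0.554) and UGT73D1 (−0.612) outside. For the highest group mean, AT4G13820 (7.07), AT4G33560 (7.11) and AT1G76470 (7.23) were inside, and AT5G47980 (6.97), AT3G18260 (6.96) and AT5G59490 (6.92) outside.

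The most elevated member with a name was AT2G44240. Its signals were 74.2 and 78.1 in control, 69.6 and 194 in boron-deficient and 1077 and 1048 in calcium-deficient plants of 2 days, a rule difference of 3.40 or 10.5-fold. Only the calcium arrays were high at 2 days, and boron replicate 2 was above its partner. At 4 days it stood at 438 and 209 in control and 344 and 429 in boron-deficient plants, so its groups overlapped there. AT3G57950 followed with 75 and 80.4 in control, 92.0 and 147 in boron-deficient and 571 and 562 in calcium-deficient plants (rule difference 2.49). Its 4 arrays of 4 days lay between 79.3 and 100, close to the controls of 2 days. A pair of members without a name had still larger differences than AT2G44240, of 3.62 and 3.5.

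**Figure D3:**
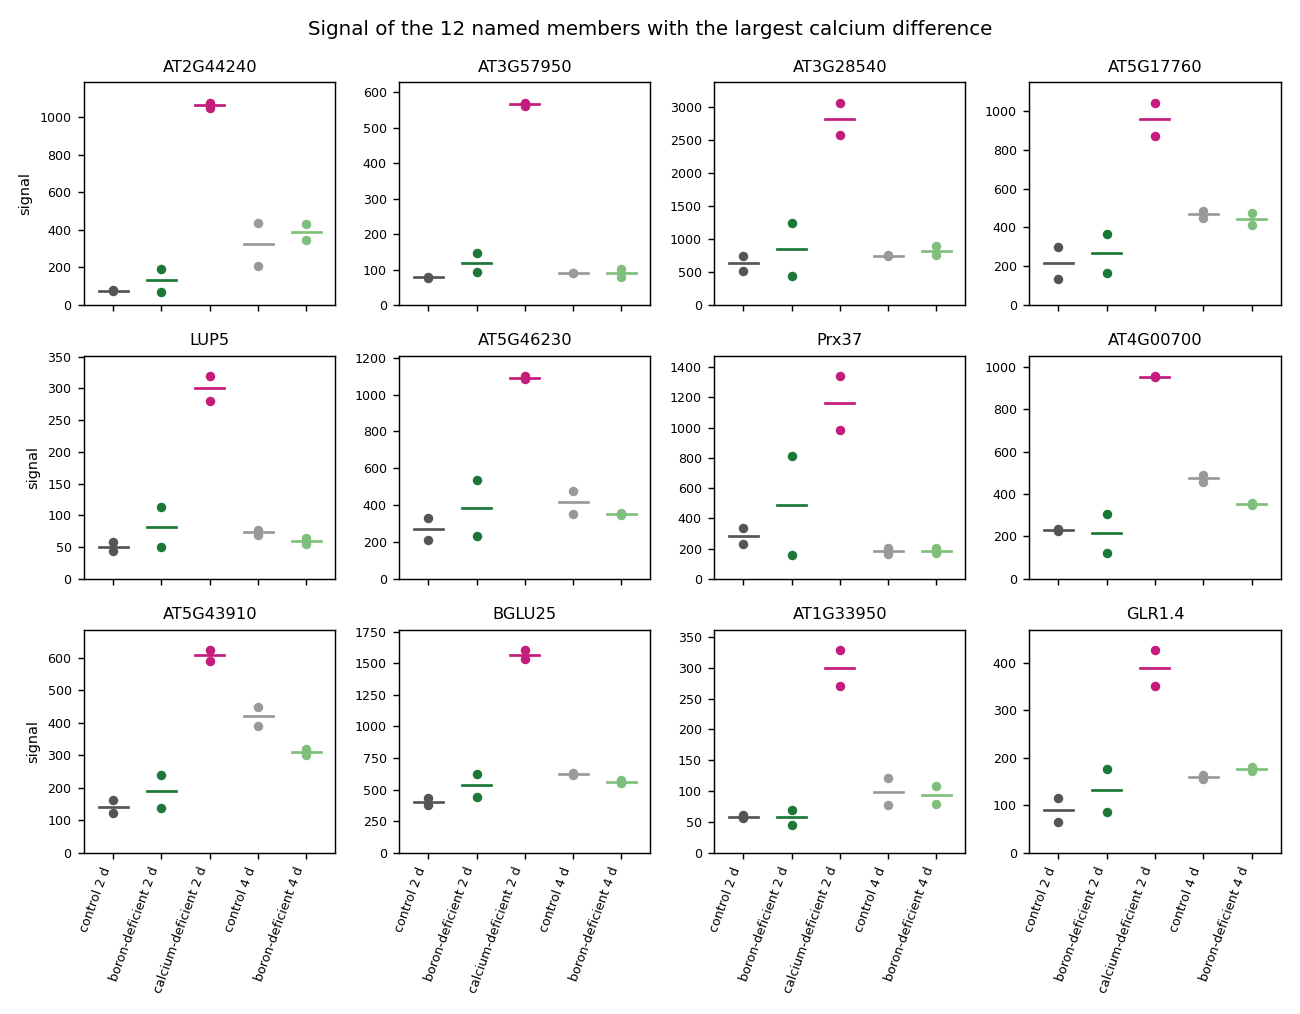
Quantile normalized signal (vertical axis, linear, from 0) of the 12 named members with the largest calcium rule difference, by group, with a point for each array and a bar for the mean of the 2 arrays. In all 12 panels both calcium arrays lie above every other array of 2 days, and boron replicate 2 lies above replicate 1, for Prx37 at 815 against 158.

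Among receptors, channels and immune signalling, 10 members had calcium rule differences of 1.05 to 1.96. GLR1.4 belongs to the glutamate receptor-like cation channels. It read 115 and 64.9 in control, 86.0 and 177 in boron-deficient and 426 and 350 in calcium-deficient plants, a difference of 1.85. The calcium arrays were highest, while boron replicate 1 lay between the controls and replicate 2 above both. AT4G00700, which carries C2 domains that bind calcium and lipids, read 235 and 224 in control, 124 and 307 in boron-deficient and 954 and 955 in calcium-deficient plants (1.96). Here the calcium replicates were almost equal while the boron replicates enclosed both controls. AT1G33950, a GTPase of the AIG1 family, first known from genes induced by avirulent bacteria, read 61.0 and 55.7 in control, 45.0 and 69.2 in boron-deficient and 328 and 271 in calcium-deficient plants (1.90).

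Members with a role around salicylic acid and pipecolic acid were part of that group. AT5G52810 encodes a reductase of pipecolic acid synthesis, the pathway of systemic acquired resistance. It read 355 and 259 in control, 321 and 489 in boron-deficient and 947 and 1131 in calcium-deficient plants (rule difference 1.70). UGT76B1, a glucosyltransferase that inactivates salicylic acid and related immune signals, read 234 and 228 in control, 115 and 291 in boron-deficient and 659 and 557 in calcium-deficient plants (1.31). Its control arrays agreed closely, with boron replicate 1 well below them and replicate 2 above. AT3G48080, a close copy of the immune regulator EDS1, had a difference of 1.26, and a share of signal between the copies was not tested. RING1, a membrane-bound ubiquitin ligase linked to programmed cell death, was the brightest of the 10, with 2383 and 1766 in control, 1303 and 2043 in boron-deficient and 5760 and 5620 in calcium-deficient plants (1.41). The leucine-rich repeat receptor kinase AT1G51860 (1.06), the receptor-like protein AT4G13820 (1.07) and the TIR domain protein AT5G45000 (1.05) were at the lower end. Boron replicate 2 exceeded replicate 1 in all 10, beside 93.4% of members and 47.4% of all probe sets.

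Class III peroxidases, secreted enzymes that cross-link wall polymers and make or use hydrogen peroxide, had 6 members. Prx37 read 336 and 228 in control, 158 and 815 in boron-deficient and 982 and 1339 in calcium-deficient plants, a rule difference of 1.97. Boron replicate 2 came near the lower calcium array, so its separation from boron deficiency rested on boron replicate 1. AT4G08780, the neighbouring gene, read 104 and 52.8, then 40.7 and 120, then 206 and 317 in the same order (1.45). In both, the calcium arrays lay above all others of 2 days. AT1G49570 read 102 and 110, then 81.9 and 217, then 303 and 429 (1.55). AT4G36430 read 309 and 274, then 338 and 494, then 807 and 809 (1.4), and was the only peroxidase with both boron arrays above both controls. PRX52 read 67.6 and 54.2, then 58.5 and 97.3, then 223 and 198 (1.39).

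AT4G11290 was the peroxidase at the limit, with 202 and 213 in control, 176 and 482 in boron-deficient and 402 and 497 in calcium-deficient plants (1.02). Its calcium and boron arrays overlapped. It is 1 of 3 members of which this holds, with AT5G10580 and 1 member without a name. In all 6 peroxidases boron replicate 2 lay above both controls, beside 81.8% of members and 26.7% of all probe sets. In 4 of the peroxidases boron replicate 1 lay below both controls, beside 50.8% of members and 42.7% of all probe sets. At 4 days the boron minus control changes of the peroxidases ran from −0.07 to 0.21.

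Nucleotide phosphatases like SAL1 remove a phosphate from the sulfur by-product PAP and from inositol phosphates, and the study of SAL1 mutants ties them to drought and light stress signals. All 3 members of this family differed by 1.08 to 1.61. SAL2 read 418 and 343 in control, 258 and 478 in boron-deficient and 1107 and 1301 in calcium-deficient plants. AT5G63990, the gene next to it, read 175 and 151, then 184 and 262, then 489 and 454 (1.42). AT5G09290, on the same chromosome but not adjacent, read 250 and 276, then 198 and 312, then 575 and 580 (1.08). In each the calcium arrays lay above the highest boron array, and the 4 day arrays stayed near the control level of 2 days.

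**Figure D4:**
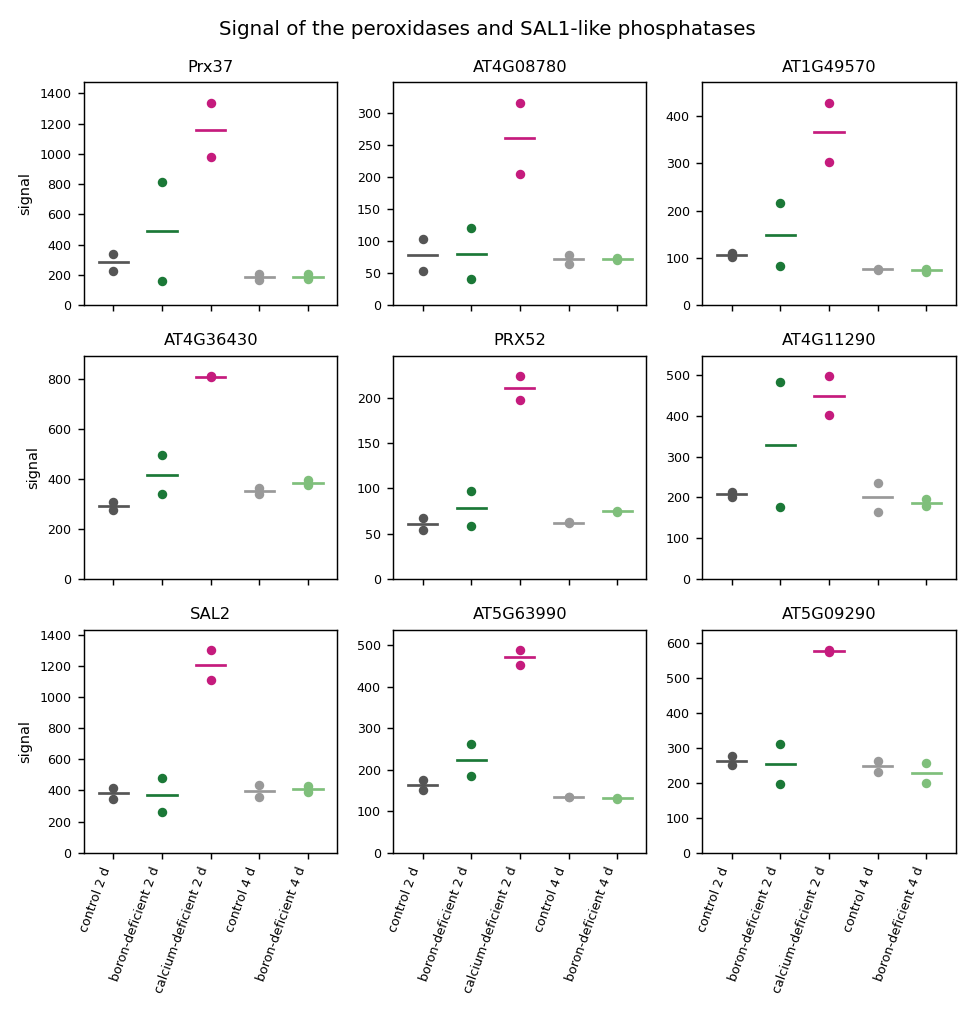
Quantile normalized signal (vertical axis, linear, from 0) of the 6 class III peroxidases and the 3 SAL1-like phosphatases by group, with a point for each array and a bar for the mean of the 2 arrays. The calcium arrays lie above all others of 2 days in each panel but that of AT4G11290, where boron replicate 2 at 482 lies between the calcium arrays at 402 and 497.

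Other hydrolases of walls, sugars and proteins counted 11 members with rule differences of 1.08 to 1.91. BGLU25, a beta-glucosidase, read 430 and 376 in control, 438 and 626 in boron-deficient and 1534 and 1603 in calcium-deficient plants (1.91). The chitinase family gene AT3G47540 read 517 and 479, then 456 and 756, then 1747 and 1659 (1.72). The cell wall invertase homologue cwINV6, a fructan-degrading enzyme, read 287 and 387, then 176 and 526, then 981 and 990 (1.5). In these 3 genes the calcium arrays stood well above the rest, and boron replicate 2 exceeded both controls.

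The pectin methylesterase PMEPCRF, which alters the acid groups by which pectin binds calcium, read 857 and 651 in control, 828 and 1368 in boron-deficient and 2038 and 1637 in calcium-deficient plants (1.24). The subtilase SBT3.5 (1.24), the secreted alpha-amylase AMY1 (1.26), the glucanases AT5G15870 (1.16) and AT4G34480 (1.11), the aspartyl protease AT3G51330 (1.15) and the serine carboxypeptidase-like scpl46 (1.31) and scpl20 (1.08) completed the group. AT5G15870 ran against the others, with 485 in boron replicate 1 and 245 in boron replicate 2.

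Members of protein import, folding and export at the endoplasmic reticulum numbered 5, with rule differences of 1.1 to 1.51. ATERDJ3B, a co-chaperone of BiP needed for the folding of immune receptors, read 1481 and 891 in control, 1112 and 1901 in boron-deficient and 3554 and 2961 in calcium-deficient plants (1.36). AT3G60540, a beta subunit of the Sec61 channel, read 265 and 276, then 226 and 339, then 809 and 816 (1.51). The calnexin homologue AT5G07340 (1.1), a calcium-binding lectin chaperone, the p24 cargo receptor AT1G26690 (1.2) and the UFD1 family gene AT2G29070 (1.15), which serves the disposal of misfolded proteins, had lower differences. All 5 lay above both controls in boron replicate 2, beside 81.8% of members and 26.7% of all probe sets.

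Of the AAA-ATPase family, whose AT3G28510 was set aside, 3 genes were members. AT3G28540 read 748 and 515 in control, 439 and 1247 in boron-deficient and 3067 and 2576 in calcium-deficient plants (2.13). AT5G17760 read 300 and 135, then 166 and 369, then 1044 and 873 (2.12), and AT5G57480 read 115 and 110, then 86.9 and 96.7, then 279 and 240 (1.03). Both calcium arrays were highest in each, and AT5G57480 was the only one of the 3 with both boron arrays below both controls.

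Heavy metal-associated domain proteins, relatives of metal chaperones, had boron arrays that did not part in 1 direction. AT5G60800 read 435 and 289 in control, 276 and 295 in boron-deficient and 981 and 941 in calcium-deficient plants (1.38). AT5G52760 read 791 and 1231, then 1217 and 790, then 2253 and 2018 (1.01), so its boron replicate 2 was the lower one. AT3G07600 read 109 and 140, then 84.3 and 136, then 281 and 282 (1.04). In none of the 3 did boron replicate 2 exceed both controls, beside 81.8% of members and 26.7% of all probe sets that did. LEA hydroxyproline-rich proteins, the family of the immune gene NDR1, had 3 members. AT5G06330 read 71.9 and 86.5, then 86.3 and 118, then 273 and 275 (1.48), and AT4G23610 read 210 and 353, then 331 and 347, then 650 and 694 (1.22). AT1G65690 read 272 and 315, then 155 and 344, then 639 and 649 (1.08), with the controls between its boron arrays. The P4-type ATPases, which flip lipids across membranes, had AT1G72700 (1.4) and AT1G68710 (1.23).

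The 9 groups above held 46 of the 86 named members. The other 40 named members and the 94 members without a name were not grouped. How common each family is among all probe sets was not counted. Metabolic genes were among the 40. AT3G13610 (F6'H1), the hydroxylase that commits phenylpropanoids to the coumarin scopoletin, read 321 and 409 in control, 252 and 603 in boron-deficient and 1193 and 1087 in calcium-deficient plants (1.59). LUP5, of the triterpene cyclase family, read 57.7 and 44.0, then 49.8 and 113, then 281 and 319 (2.05). The sugar kinase family gene AT5G43910 read 162 and 122, then 136 and 240, then 623 and 590 (1.94). These 3 had the same order of groups, with the calcium arrays apart from the others.

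AT5G46230 read 331 and 210 in control, 230 and 535 in boron-deficient and 1087 and 1099 in calcium-deficient plants (1.97). The methionine sulfoxide reductase MSRB9, which repairs oxidized protein, had 745 and 593 in control and 1745 and 2218 in calcium-deficient plants (1.51). AT5G02720 (1.84), AT2G41250 (1.71), AT4G17670 (1.47), AT4G23885 (1.44) and AT1G76470 (1.41) complete the 30 named members with the largest difference. AT5G02720 was the dimmest member in control, at 35.1 and 33.7.

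The 86 named genes lie on all 5 nuclear chromosomes. In the order of protein-coding genes of the RefSeq annotation of TAIR10.1, 3 pairs of members are direct neighbours: Prx37 with AT4G08780, AT5G63990 with SAL2, and PCME, a prenylcysteine methylesterase, with AT5G15870. Near AT3G60540 lie AT3G60520, AT3G60450 and AT3G60420, with 1, 6 and 1 genes between successive members. Where neighbours belong to the same family, a share of signal between their probe sets was not tested.

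The arrays of 4 days were not used to choose the members, so their response to boron deficiency at 4 days could be tested on other plants. Their calcium difference could not be tested there, since calcium deficiency has no 4 day group. No member passed the test: of 180 members tested, limma called 0 higher and 0 lower at an adjusted p of 0.05, beside 0.00586% of 17059 probe sets called higher (1 probe set) and 0.0% called lower. The member left out by the filter on dim probe sets was AT5G02720. At an unadjusted p of 0.05 there were 1 higher and 3 lower members, beside 2.83% and 1.42% of all probe sets (4.25% together). Nothing is read from the distance between these shares, since the members' p-values carry the spread of the arrays of 2 days. A fit with arrays of 4 days only called 0 of 173 members and 0 of all probe sets, with a member median of −0.07. The lowest adjusted p of a member in the main fit was 0.982.

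The member with that value was AT3G09960, of the calcineurin-like phosphoesterase fold. It read 159 and 149 in control and 258 and 197 in boron-deficient plants of 4 days, a log2 change of 0.51 (SE 0.14, 95% confidence interval 0.18 to 0.83, unadjusted p = 0.00619 by limma). Its boron arrays were both above the controls. The named member among the 3 lower was AT4G33560, with 100 and 150 in control and 77.6 and 78.8 in boron-deficient plants (−0.56, SE 0.23, interval −1.07 to −0.05, unadjusted p = 0.0359 by limma). UGT76B1 had the lowest value of all members, with 656 and 863 in control and 440 and 563 in boron-deficient plants (−0.58, SE 0.33, interval −1.32 to 0.16).

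Changes of the 180 tested members ran from −0.58 to 0.51 with a median of −0.07, and 61 of them (33.9%) were above 0. Over all 17059 probe sets the median was −0.01, and 48.2% were above 0. Both boron arrays lay above both controls for 15 members and below them for 44, beside 19.9% and 22.5% of all probe sets. For 175 of the 180 the upper end of the 95% interval was under 1, so that a doubling lay outside it, and the same held for 16697 of all 17059 probe sets. The median distance from a change to the end of its interval was 0.49 for members and 0.34 for all probe sets. These widths include the spread of the arrays of 2 days. The member median was −0.14 without control 4 d replicate 1, −0.02 without control 4 d replicate 2 and −0.12 without boron-deficient 4 d replicate 2.

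**Figure D5:**
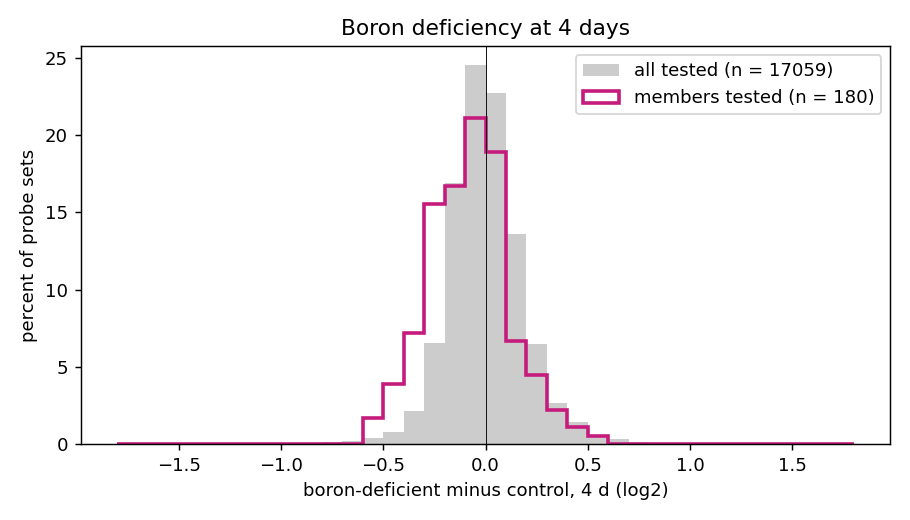
Histogram of the log2 change between boron-deficient and control plants at 4 days, as percent of probe sets, for all 17059 tested probe sets (grey) and the 180 tested members (line). The members lie between −0.58 and 0.51 with a median of −0.07, and the median of all is −0.01.

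Between the control groups the members' levels moved with the day. The median difference of control plants of 4 days minus those of 2 days was 0.47 for the tested members and −0.01 for all probe sets. At least a doubling was seen for 34 of 180 members and 964 of 17059 probe sets. The median deposited signal differed between the arrays of the 2 days, and the rule used the 2 day controls, so this is a description without a test. For 13 members, 8 of them named, the mean control signal at 4 days reached or passed the calcium-deficient mean of 2 days. AT2G41250, of a phosphatase-like hydrolase family, had 236 and 377 in control and 836 and 1271 in calcium-deficient plants of 2 days, but 3287 and 2839 in controls of 4 days. PMEPCRF had 2514 and 3039 and scpl46 had 1174 and 1222 in controls of 4 days. The peroxidases did not share this: their differences between the control groups ran from −0.56 to 0.26.

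Around the members, 95 genes were listed for salicylic acid defence, jasmonate and ethylene defence, camalexin synthesis, calcium sensing and transport, protein folding and senescence. Only 13 could be matched to a probe set by name, and none of camalexin synthesis. UGT76B1 and ERDJ3B are members, and CML47 and PDF1.2A were set aside. Of the 9 others, 3 rose in calcium deficiency and 0 fell by limma, beside 11.8% of 17059 probe sets higher and 9.93% lower (21.7% together). Their median log2 change was 0.77, with −0.02 over all probe sets. In boron deficiency at 2 days 1 of the 9 rose (WRKY53), beside 5.8% of all probe sets higher and 2.72% lower (8.52% together), and the median was −0.26.

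GRX480, a glutaredoxin induced by salicylic acid, read 366 and 513 in control, 906 and 592 in boron-deficient and 1349 and 1285 in calcium-deficient plants of 2 days. It rose in calcium deficiency (log2 change 1.57, SE 0.24, limma adjusted p = 0.00309), and the direct comparison with boron deficiency did not pass (0.83, limma adjusted p = 0.0589). SAG101, a partner of EDS1, read 323 and 330, then 281 and 318, then 653 and 493. Its calcium change was 0.77 (SE 0.17, limma adjusted p = 0.0116) and its calcium minus boron difference 0.89 (SE 0.17, limma adjusted p = 0.0124), the only 1 of the 9 genes to pass that comparison, beside 4.72% of all probe sets higher and 5.73% lower (10.5% together). WRKY53, a senescence and stress transcription factor, rose in both, by 0.97 (limma adjusted p = 0.00542) with calcium and 0.93 (adjusted p = 0.0155) with boron deficiency. The calcium calls of SAG101 and WRKY53 were lost without calcium-deficient replicate 1 (0.57 and 0.81, limma adjusted p = 0.109 and 0.0624). The calcium minus boron call of SAG101 was lost without that array and without boron-deficient 2 d replicate 1 (0.69 and 0.8, limma adjusted p = 0.102 and 0.0837), and the boron call of WRKY53 with arrays of 2 days only, with array weights and without boron replicate 1 of 2 days (limma adjusted p = 0.0589, 0.0985 and 0.0518), where its log2 change was 0.95, 0.93 and 0.83.

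The other list genes did not pass in calcium deficiency. The calcium sensors CML37, CML38 and CML41 had changes of 0.26, −0.08 and 0.17 there, the thionin THI2.1 0.78 and the defensin PDF1.2B 1.05 (limma adjusted p = 0.0629). WRKY6 had −0.17.

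Some tissue markers moved beside the members. A probe set was named for 3 of 6 root markers, and none was at 0. Their summed signal was 1615 and 1889 in control, 2508 and 3334 in boron-deficient and 4137 and 3089 in calcium-deficient plants of 2 days, and 4136 to 4625 in the groups of 4 days. PYK10, a beta-glucosidase of root cells, made up most of each sum, for example 1428 of 1615 and 3919 of 4137. PYK10 rose in calcium deficiency (log2 change 1.09, SE 0.18, limma adjusted p = 0.00379) and in boron deficiency at 2 days (0.73, limma adjusted p = 0.0375). The boron call of PYK10 was lost with arrays of 2 days only, with array weights and with the replicate block (limma adjusted p = 0.125, 0.187 and 0.0529). It was also lost with values as deposited and with arrays shifted to the same median (limma adjusted p = 0.0503 and 0.0607). Other pseudocounts and no filter on low values kept it. Leaving out single arrays gave log2 changes from 0.54, without boron-deficient 2 d replicate 2, to 0.91, without replicate 1 of that group. The call did not hold under each of these omissions. The root hair expansins EXPA7 and EXPA18 did not pass in either, with 0.14 and 0.34 in calcium and 0.43 and 0.72 in boron deficiency. The median of the 3 markers was 0.34 with calcium and 0.72 with boron deficiency, so the set did not share the order of its sums. Boron replicate 2, the higher of the boron arrays over the members, also had the higher root sum.

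Of 6 leaf markers 3 were measured, none at 0, with sums of 32556 and 36362 in control, 34091 and 32436 in boron-deficient and 28987 and 26239 in calcium-deficient plants. PRK fell (−0.69, limma adjusted p = 0.00309) and RCA fell (−0.49, limma adjusted p = 0.00894, but 0.0602 with arrays of 2 days only and 0.0639 without calcium-deficient replicate 2), while LHCB4.1 stood at −0.01. Of 6 flower and seed markers, 0 could be matched to a probe set by name. The part of tissue makeup in the members' differences was not tested, and in whole plants more cells of a type and more RNA per cell cannot be told apart.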

How the data were processed

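Arrays were ATH1, hybridized with biotin-labelled RNA of whole plants, per the labels. The deposited values are linear probe set signal intensities, for which the submitters' processing notes name GCOS 1.4 and nothing further is stated. The median deposited signal was 115 to 121 at 2 days (6 arrays) but 232 to 243 at 4 days (4 arrays). Replicates correlated at Spearman 0.969 to 0.993. Members and gene lists were chosen with earlier results of these data known.

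For tests the arrays were quantile normalized together, taken as log2(signal + 16) and filtered at the 25th percentile of the mean (17059 of 22746 probe sets kept). limma 3.58.1 in R 4.3.3 fitted the 5 group means (5 residual degrees of freedom, intensity trend), with Benjamini-Hochberg adjustment over all probe sets at 0.05. The fit was tested on simulated data. Precision is limited by having 2 arrays in a group. Calcium and boron contrasts of 2 days share their controls.

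Names came from the platform table (13513 probe sets with a single gene, 503 with several, 8730 with none), matched to RefSeq TAIR10.1. Values per array were to be given for the 12 named members with the largest difference and for gene families of at least 3, and names for the 30 largest, list genes and members at the limits. Further members were named, and role groups formed, after their values were seen. Alternatives were other scalings, pseudocounts, filters, arrays of 1 day, a replicate block, array weights and leaving out each array. Promoter motifs and sequences were not analysed here. Figures used matplotlib 3.10.9 in Python 3.11.15.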

Additional observations from a re-analysis of the deposited data

How the results depend on the processing

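The count of 0 members called at 4 days was the same under every alternative that kept both arrays of each group. Of all probe sets 1 was called in the main fit and 3 with array weights. A count of 0 members therefore had little room to differ, and nothing is read from its constancy. Leaving out single arrays gave member medians at 4 days of −0.14 to −0.02. The number of probe sets meeting the limits was 204 with quantile normalization (171 shared with the members), 174 as deposited (173), 183 with a pseudocount of 1 (161), 134 with a pseudocount of 64 (118) and 196 without a minimum mean. Leaving out single arrays gave 114 to 240, the lowest without boron-deficient 2 d replicate 1. Of the 13 list genes, 7 were called with calcium, 1 with boron and 4 in calcium against boron deficiency, all higher. Of all probe sets 11.8%, 5.8% and 4.72% were called higher in these contrasts. The first and last counts include the members UGT76B1 and ERDJ3B, and CML47, which met the limits and was set aside. The rule chose these genes by the same values, so nothing is read from the counts of the 13. Leaving out single arrays gave counts of 2 to 8, 0 to 2 and 0 to 6. With arrays of 2 days only they were 6, 0 and 1. With array weights the boron count was 0. With the replicate block the counts were 7, 1 and 2, and no member was called at 4 days. Same-numbered arrays of different groups did not deviate together (correlations of −0.215 to 0.198 over 10 pairs of groups), which gives no sign that the numbers pair the samples. The descriptions of the boron-deficient arrays of 2 days number them 2 and 3 where their titles say 1 and 2, so same titles may not mean the same numbering, and the block rests on the titles. The cause of these shifts was not tested. None of the genes followed under the alternatives changed direction.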

Other observations

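Among the members without a named gene, the median calcium rule difference was 1.37, against 1.26 for members with a single gene. The highest of them had signals of 327 and 260 in control, 156 and 512 in boron-deficient and 4081 and 3628 in calcium-deficient plants of 2 days. In the next highest the same groups had 632 and 272, 261 and 1116, and 4944 and 4723. Boron replicate 2 lay above and boron replicate 1 below both controls in each.

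Spread between replicates differed by group. The median absolute difference between the 2 arrays of a group, over the members, was 0.60 in boron-deficient plants of 2 days, 0.25 in control plants of 2 days and 0.17 in calcium-deficient plants. Over all probe sets it was 0.17, 0.23 and 0.12. At 4 days it was 0.21 in control and 0.18 in boron-deficient plants over the members.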
